A study of Mus musculus with 9 samples.

Results

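The Mir140 hairpin gives rise to a pair of mature microRNAs, mmu-miR-140-3p and mmu-miR-140-5p, named for the strand of the hairpin they come from and written miR-140-3p and miR-140-5p below. Both identifiers, 2 of the 1915 mouse miRNA identifiers in each table, were taken by name and followed in 9 small RNA libraries from extracellular vesicles. The vesicles were precipitated from the supernatant of a conditionally immortalized mouse podocyte line, a cultured model of the epithelial cells that cover the capillaries of the kidney filter. After differentiation over 10 days, with fetal bovine serum in the medium, cells were treated for 48 h. The groups were high glucose (30 mM), mannitol (24.7 mM of this sugar alcohol added to 5.3 mM glucose, to match the osmolality) and normal glucose (5.3 mM), with 3 libraries each. All came from a single cell line, and no label states whether bovine vesicles had been removed from the serum.

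In the nucleus and then the cytoplasm a miRNA hairpin is cut to a short duplex, of which usually 1 strand is loaded into an Argonaute protein while the other is degraded. Bases 2 to 8 of the loaded strand, its seed, largely set which messenger RNAs it represses. Mir140 is best known from cartilage, where the transcription factor SOX9 drives it together with its host gene Wwp2, which encodes a HECT-type ubiquitin ligase. Mice without Mir140 have skeletal growth defects and early joint degeneration. The 3p strand is known to occur in isoforms that begin at different bases and so carry shifted seeds, and the tables give a single count per arm that does not separate them.

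On the GRCm38 assembly the hairpin spans chromosome 8 from 107551244 to 107551313, plus strand, which is also the strand of Wwp2. In the GENCODE transcript Wwp2-201, with 24 exons, it falls inside intron 16 (107550136 to 107552276), with 1108 bases of the intron before it and 963 after it. The RefSeq sequences (GRCm38.p6) below show the hairpin with miR-140-3p in capitals, then miR-140-3p with its seed in capitals, and then the other mouse miRNA of that table with the same seed, miR-497b. They are printed because the whole account rests on the balance between the capitalised strand of the hairpin and the opposite strand.
Mir140 hairpin: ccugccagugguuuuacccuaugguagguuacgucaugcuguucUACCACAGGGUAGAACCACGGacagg
miR-140-3p: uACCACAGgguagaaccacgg
miR-497b: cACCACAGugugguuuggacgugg
The 3p strand takes positions 45 to 65 of the hairpin, is 21 bases long and has 57.1% GC. In a minimum free energy fold computed with RNAfold (-39.1 kcal per mol) 20 of those 21 bases were paired, 6 of the 7 seed bases among them. No other hairpin of the table held the whole miR-140-3p sequence, and no other identifier had the same 9 counts as either arm. The seed partner miR-497b was listed in 0 of the 9 libraries. A mature sequence was found for 1 of the 2 arms, so seeds were compared for miR-140-3p alone.

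Total miRNA counts were 725211 to 2553690 in high glucose, 1329426 to 2269776 with mannitol and 1087144 to 1539514 in normal glucose. High glucose replicate 1 was the shallowest library, and the deposited RPM values of its miRNAs summed to 34280, the lowest of the 9 libraries. No count from 1 to 9 was listed, and a listed 0 can therefore be anything up to 9 reads; both arms were listed in all 9 libraries. The podocyte-enriched miR-30 guides were listed for 5 of 5 members, and their summed level was 149949 to 224982 CPM in high glucose, 106713 to 177083 for mannitol and 126420 to 140209 for normal glucose. Markers of other cells were also present. Endothelial, mesenchymal, muscle and neural lists had every member listed in at least 1 library. The kidney tubule list had 3 of 4 (miR-204-5p at 0) and the blood, immune and liver list 6 of 7 (miR-142a-3p at 0). Of these members, miR-126a-5p and miR-199a-5p were listed in 6 libraries, miR-145a-5p in 7, and miR-9-5p and miR-150-5p in 8. Fewer libraries listed miR-223-3p (5) and miR-144-3p (1). The summed mesenchymal level was 1606 to 2096 CPM in high glucose, 1355 to 2071 for mannitol and 1122 to 3428 for normal glucose, and the summed blood, immune and liver level was 13484 to 25642, 15494 to 33499 and 15515 to 30438 CPM in the same order of groups. The summed tubule level was 3323 to 5008 CPM in high glucose, 2348 to 3211 for mannitol and 2286 to 3483 for normal glucose, and the summed muscle level 1401 to 1761, 1368 to 5994 and 1666 to 3029 CPM. Endothelial markers summed to 276 to 678, 308 to 344 and 229 to 825 CPM, and neural markers to 1355 to 2406, 1872 to 3005 and 1924 to 3384 CPM. These sums were carried mostly by the most abundant members of each list. By mean CPM over the 9 libraries they were miR-126a-3p (403), miR-128-3p (2129), miR-192-5p (2955) and miR-143-3p (1381). For muscle they were miR-206-3p (1486) and miR-1a-3p (650), and for blood, immune and liver miR-122-5p (15937) and miR-486a-5p (5879). Among the miR-30 guides they were miR-30a-5p (116618) and miR-30d-5p (36579). The part of other cells, of the serum or of depth in the values below was not tested. In such pooled material fewer vesicles and less RNA per vesicle cannot be told apart.

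miR-140-3p was an abundant vesicle miRNA. Its mean over the 9 libraries, 7192 ± 1381 CPM (SD, n = 9; CPM scales each count to the total miRNA count of its library), placed it 32nd of all identifiers. Within libraries its rank ran from 23 in high glucose replicate 3 to 40 in normal glucose replicate 2. The neighbours in level were miR-152-3p at 7587 ± 1836 CPM and miR-501-3p at 6691 ± 1685 CPM (SD, n = 9 each), and neither differed from it beyond the spread, since miR-152-3p was the higher in 5 of 9 libraries and miR-501-3p in 4 of 9.

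The 3p arm stood at 7392, 8210 and 9414 CPM in high glucose replicates 1, 2 and 3. With mannitol it stood at 7558, 7980 and 6844 CPM, and in normal glucose at 7024, 5039 and 5266 CPM. All high glucose libraries lay above all normal glucose libraries, while the mannitol libraries overlapped with both other groups. Normal glucose replicate 1, at 7024 CPM, lay close to high glucose replicate 1 and above mannitol replicate 3. Mean CPM was 8339 ± 1017 in high glucose, 7461 ± 574 for mannitol and 5776 ± 1086 for normal glucose (SD, n = 3 each). The spread within groups was far above counting error, with a coefficient of variation of 12.2% in high glucose against 0.957% expected from counting alone.

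**Figure D1:**
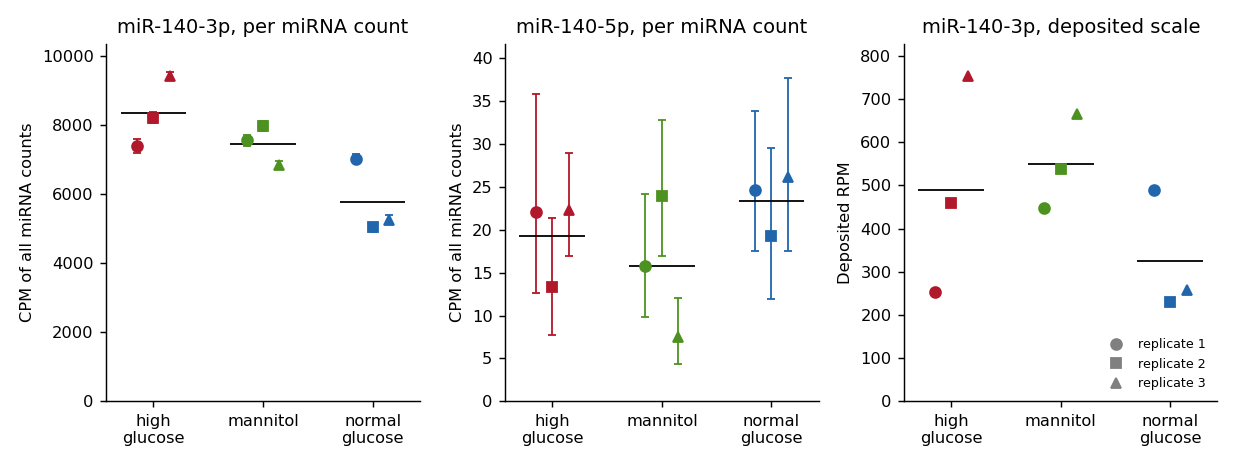
Levels of miR-140-3p (left) and miR-140-5p (middle) in CPM of all miRNA counts and of miR-140-3p in deposited RPM (right), by group, each point a library and each line a group mean; bars on CPM are 95% Poisson intervals of the count, which cover counting error only. In CPM the high glucose libraries (7392 to 9414) lie above the normal glucose libraries (5039 to 7024) for the 3p arm, while in RPM high glucose replicate 1 (253) falls among the normal glucose libraries.

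Both arms were chosen by these CPM levels across the groups, and miR-140-3p was already known from earlier results of these data as one of the higher values of high glucose against normal glucose, so its differences are descriptions without a test. Log2 fold changes came from an edgeR fit of all 361 miRNAs that passed the expression filter, both arms among them. miR-140-3p had 0.63 in high glucose against normal glucose (SE 0.27, 95% interval 0.07 to 1.20), the 36th highest of 361. It had 0.32 in high glucose against mannitol (SE 0.27, -0.25 to 0.88) and 0.32 in mannitol against normal glucose (SE 0.27, -0.25 to 0.88). The median of all tested miRNAs in those comparisons was -0.04, -0.04 and 0.01. Beside the 0.63 of miR-140-3p in high over normal glucose, the tubule list had 3 of 3 tested members positive (median 0.58), the miR-30 guides 5 of 5 (0.17), mesenchymal markers 4 of 5 (0.04), endothelial markers 1 of 2 (0.03), blood, immune and liver markers 2 of 5 (-0.02), neural markers 1 of 3 (-0.24) and muscle markers 0 of 3 (-0.50). None of these members passed in this fit, and their part in the value of miR-140-3p was not tested. The comparisons share libraries, so the values are set side by side and not counted as separate results.

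Neither arm passed an adjusted p of 0.05 by edgeR's quasi-likelihood test in any comparison, against a background of 0% of the 361 miRNAs called in each. At an unadjusted p under 0.05 edgeR had 10 miRNAs in high glucose against normal glucose, 19 in high glucose against mannitol and 5 in mannitol against normal glucose. In the same order DESeq2 had 15, 26 and 7 with 0, 1 and 0 called, and limma-voom had 5, 29 and 3 with 0 called in each. The 1 called by DESeq2 was miR-182-5p (0.60), named after its value was seen. In CPM, 2.49% of tested miRNAs had all high glucose libraries above all normal glucose libraries, as miR-140-3p did; since that contrast belongs to how it was chosen, nothing is read from the share.

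The level of miR-140-3p depended on what the counts were divided by. On the deposited RPM scale, which divides by a constant per library whose meaning is not stated, high glucose replicates 1, 2 and 3 stood at 253, 458 and 754 RPM. Mannitol libraries stood at 447, 538 and 664 RPM, and normal glucose libraries at 489, 229 and 258 RPM. High glucose replicate 1 was among the normal glucose libraries on this scale, so the groups overlapped. Fitted on that scale, miR-140-3p had 0.59 in high glucose against normal glucose, -0.17 in high glucose against mannitol and 0.76 in mannitol against normal glucose. The median of all tested miRNAs moved as well, to -0.12, -0.59 and 0.50. Relative to that median miR-140-3p stayed higher in the 3 comparisons, by 0.70, 0.42 and 0.25, which compares with 0.68, 0.36 and 0.31 on the TMM scale.

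The opposite strand, miR-140-5p, was close to the reporting limit. It had 16, 17 and 57 counts in high glucose, 21, 38 and 17 counts with mannitol and 38, 21 and 29 counts in normal glucose. No library was under the 10 reads at which listing begins, but the lowest count was only 16. In CPM the values were 22.1, 13.3 and 22.3 in high glucose, 15.8, 23.9 and 7.49 with mannitol and 24.7, 19.3 and 26.2 in normal glucose. The 3 groups overlapped, and mannitol replicate 3, from 17 reads, was the lowest library (95% Poisson interval 4.36 to 12.0 CPM). Poisson intervals of the other libraries were wide, such as 12.6 to 35.8 CPM in high glucose replicate 1.

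Mean CPM of miR-140-5p was 19.2 ± 5.13 in high glucose, 15.7 ± 8.21 for mannitol and 23.4 ± 3.61 for normal glucose (SD, n = 3 each). In normal glucose the coefficient of variation, 15.4%, was no larger than the 18.6% that counting error gives, and with mannitol it was 52.2% against 20.2% from counting. The fitted log2 fold changes were -0.19 in high glucose against normal glucose (SE 0.71, 95% interval -1.71 to 1.32), 0.40 in high glucose against mannitol (SE 0.71, -1.11 to 1.92) and -0.60 in mannitol against normal glucose (SE 0.71, -2.12 to 0.92). These intervals hold both directions. The values in both comparisons with mannitol turned on single mannitol libraries: in high glucose against mannitol miR-140-5p had 0.98 without mannitol replicate 2 and 0.07 without mannitol replicate 3, and in mannitol against normal glucose it had -1.08 and -0.26. In high glucose against normal glucose it had -0.01 without high glucose replicate 2. By limma-voom the values were 0.85 in high glucose against mannitol and -0.97 in mannitol against normal glucose. By mean level the 5p arm was 265th, between miR-219a-1-3p at 19.5 ± 8.57 CPM and miR-374b-5p at 19.1 ± 6.32 CPM (SD, n = 9 each), and differed from neither beyond the spread.

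The share of the 5p arm in the counts of both arms does not depend on how libraries are scaled. It was 0.298%, 0.162% and 0.237% in high glucose replicates 1, 2 and 3. With mannitol it was 0.209%, 0.299% and 0.109%, and in normal glucose 0.350%, 0.382% and 0.495%. The normal glucose libraries had the highest shares, above every library of the other groups, while high glucose and mannitol libraries overlapped. Exact Clopper-Pearson 95% intervals, which cover counting error only, were 0.170% to 0.483% in high glucose replicate 1 and 0.248% to 0.480% in normal glucose replicate 1, and so overlapped. These intervals did not overlap in 2 of the 9 pairs of a high glucose with a normal glucose library, in 4 of the 9 pairs of a mannitol with a normal glucose library and in 1 of the 9 pairs of a high glucose with a mannitol library. Of these 7 pairs, 4 held mannitol replicate 3 and 4 held normal glucose replicate 3. Over the summed counts of a group the share was 90 of 39973 in high glucose (0.225%, 0.181% to 0.277%). It was 76 of 38337 with mannitol (0.198%, 0.156% to 0.248%) and 88 of 22210 in normal glucose (0.396%, 0.318% to 0.488%). These pooled intervals also cover counting error only and leave out the spread between libraries, so no group difference is read from them. Of the 90 counts of miR-140-5p in high glucose, 57 came from replicate 3.

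**Figure D2:**
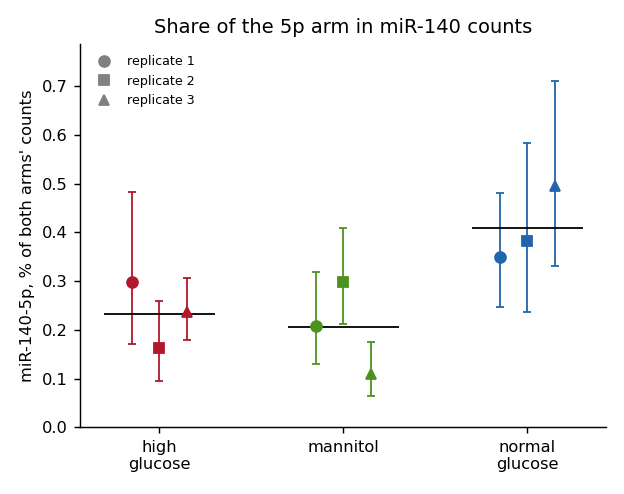
Share of miR-140-5p in the summed counts of both miR-140 arms, in percent, by group, with each point a library, bars its exact 95% binomial interval and lines the group means. The normal glucose libraries (0.350% to 0.495%) lie above the high glucose (0.162% to 0.298%) and mannitol libraries (0.109% to 0.299%); the intervals of mannitol replicate 3 (up to 0.175%) and of all normal glucose libraries (from 0.237%) do not overlap, while those of most other pairs do.

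Per read of miR-140-5p there were 335, 617 and 422 reads of miR-140-3p in high glucose, 478, 334 and 914 with mannitol and 285, 261 and 201 in normal glucose. The highest of these, in mannitol replicate 3, rests on 17 reads of the 5p arm. On the log2 scale the ratio averaged 8.79 ± 0.44 in high glucose, 9.04 ± 0.74 with mannitol and 7.94 ± 0.26 in normal glucose (SD, n = 3 each). High glucose minus normal glucose was 0.85, and all 9 pairs of libraries had the higher ratio in high glucose. Mannitol minus normal glucose was 1.10, again with the higher ratio with mannitol in 9 of 9 pairs, or 0.70 without mannitol replicate 3. High glucose minus mannitol was -0.25, with the higher ratio in high glucose in 4 of 9 pairs, and 0.15 without mannitol replicate 3. The first and second of these differences rest on the same normal glucose libraries, and no test is given because both counts belong to the choice of the miRNAs.

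Other hairpins give a background for this ratio. Both arms were listed in all 9 libraries for 41 hairpins whose arms share a name, and in 124 more only 1 of the arms was. The groups' ratios did not overlap, with the higher ratio in high glucose than in normal glucose, for 4.88% of the 41, which is miR-140 and miR-99b. In the opposite direction, with the lower ratio in high glucose, the groups did not overlap for miR-351 (difference -0.54) and miR-872 (-0.47). Ratios that did not overlap between high and normal glucose thus occurred in both directions. The ratios of mannitol and normal glucose did not overlap, with the higher ratio with mannitol, for 9.76%, which is miR-140, miR-151, miR-221 and miR-425. Ordered from the most positive down, the high glucose minus normal glucose difference of miR-140 was 2nd of the 41, after miR-151 at 0.91, while miR-671 at -1.04 was larger in size with the opposite sign. The mannitol minus normal glucose difference was 2nd as well, after miR-151 at 1.54. The median difference over the 41 hairpins was 0.08 and 0.11 in those comparisons. In high glucose against mannitol miR-140 was 21st and equalled the median of -0.25.

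Among the 41 hairpins with both arms listed in every library, miR-140 had one of the strongest arm preferences. The 124 hairpins with only 1 arm listed in every library were not ranked, and some of them may be more one-sided. Averaged over the 9 libraries the log2 ratio of 3p to 5p of miR-140 was 8.59 ± 0.67 (SD, n = 9), 3rd of 41 in favour of the 3p arm and 3rd in either direction. Its neighbours were miR-27b at 9.70 ± 0.24, a hairpin linked to lipid metabolism and angiogenesis, and miR-221 at 8.09 ± 0.53, a cell-cycle hairpin that represses the inhibitor p27. The median size of the log2 ratio in either direction was 3.31. Of the 41 hairpins 23 had the 3p arm higher on average and 18 the 5p arm. The library-to-library spread of the ratio for miR-140, 0.67, was 10th highest of 41 and above the median of 0.52, beside a lowest 5p count of 16. The RefSeq sequence of miR-140-3p begins with U and is among the 16 of 36 more abundant arms with a sequence that did. Of the less abundant arms 7 of 37 did. The counts do not show at which base the reads began, and a link of the first base to arm preference was not tested.

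**Figure D3:**
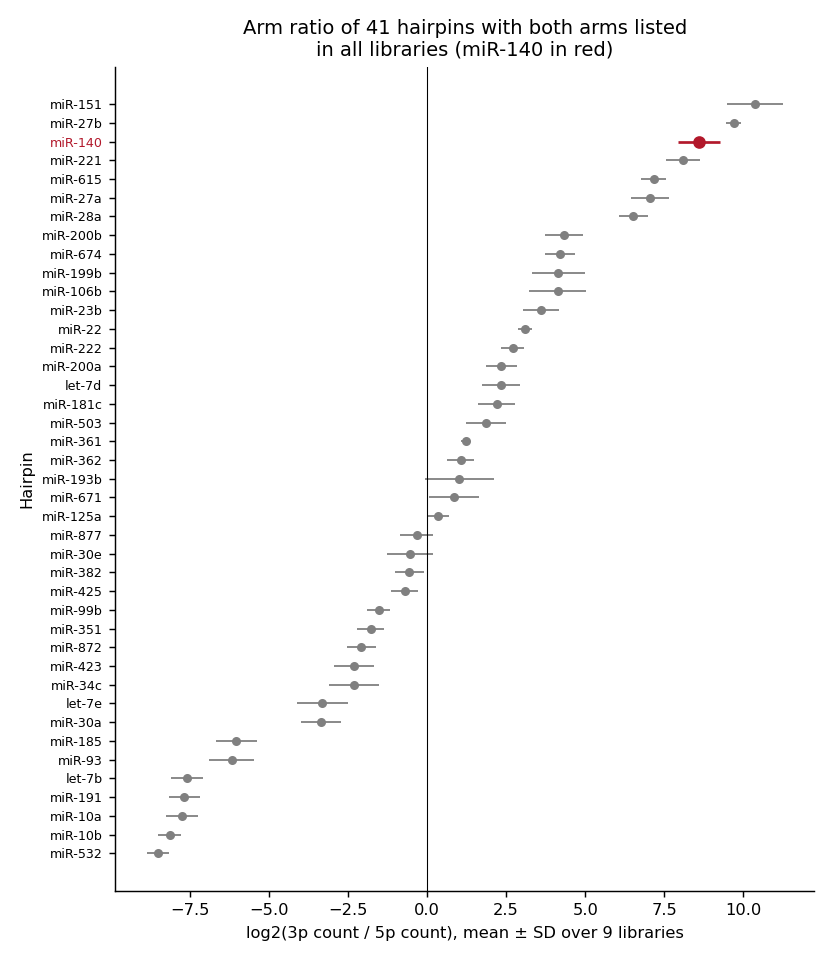
Log2 ratio of 3p to 5p counts for the 41 hairpins with both arms listed in every library, points being means and bars the SD over 9 libraries, sorted by mean. The hairpin miR-140, in red at 8.59, is 3rd from the top, between miR-27b (9.70) and miR-221 (8.09).

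Since both arms are cut from a common precursor, it was asked whether their levels moved together over the libraries. In log2 CPM Pearson's r was -0.087 (n = 9, two-sided exact permutation p = 0.828) and Spearman's rho was -0.10 (exact permutation p = 0.81). The permutations moved libraries freely across groups with different mean levels, and the arms were chosen by these levels. The p-values of this paragraph therefore do not decide whether the arms move together. The relation between the arms was the only one tested, but in several settings, and its p-values were not adjusted for their number. Without normal glucose replicates 2 and 3, the libraries farthest from the median of miR-140-3p, r was 0.37 (n = 7, exact permutation p = 0.416). After subtraction of the group means, chosen after seeing the data, r was 0.40. On the deposited RPM scale it was 0.35 (n = 9, exact permutation p = 0.339). The sign therefore turned with the scale and with the libraries used, and counting error of the 5p arm limits any such value. For the 41 hairpins the median r between arms was 0.28, miR-140 was 30th, and 15 hairpins had a negative r.

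**Figure D4:**
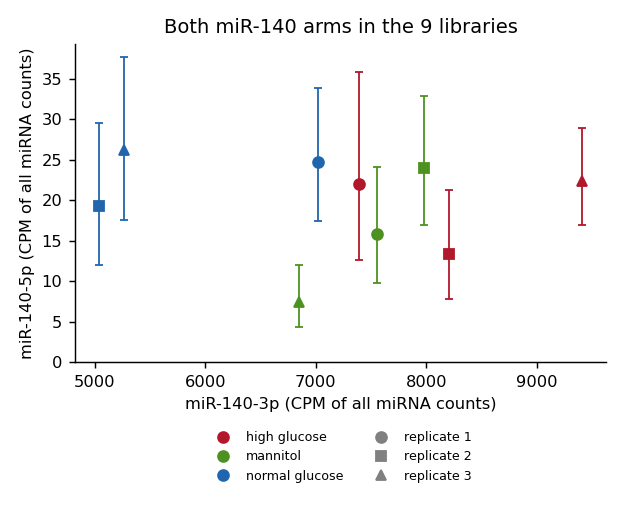
miR-140-5p (vertical, with 95% Poisson intervals of the count) against miR-140-3p (horizontal), both in CPM of all miRNA counts, for the 9 libraries, coloured by group and shaped by replicate. Pearson's r of log2 CPM was -0.087, a value whose sign turned with the scale and the libraries used and which does not decide whether the arms move together. The normal glucose libraries lie at 5039 to 7024 CPM of miR-140-3p, and mannitol replicate 3 is lowest at 7.49 CPM of miR-140-5p.

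The miRNAs whose pattern was most like each arm were sought among the 258 others listed in all libraries, by Pearson's r of log2 CPM over the 9 libraries. These are the top of a ranking, given as descriptions without a p, and all values of a library share its total. For miR-140-3p they were miR-27b-3p (r = 0.74, rho = 0.92), miR-1843a-5p (r = 0.73, rho = 0.65), miR-378c (r = 0.67, rho = 0.72), miR-362-5p (r = 0.65, rho = 0.77) and miR-425-3p (r = 0.64, rho = 0.20). Without the 2 libraries farthest from the median of miR-140-3p, r stayed at 0.78 for miR-27b-3p and 0.85 for miR-362-5p, was 0.49 for miR-1843a-5p and 0.50 for miR-378c, and turned to -0.31 for miR-425-3p, whose likeness rested on those libraries. The most alike, miR-27b-3p, had a mean CPM of 39357 ± 6472 in high glucose, 35578 ± 9982 for mannitol and 30034 ± 2261 for normal glucose (SD, n = 3 each).

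A different set resembled miR-140-5p. It held miR-503-5p (r = 0.84, rho = 0.90), miR-421-3p (r = 0.83, rho = 0.95), miR-17-5p (r = 0.82, rho = 0.43), miR-7a-5p (r = 0.79, rho = 0.60) and miR-93-5p (r = 0.79, rho = 0.52), and 0 of these 5 were also among the 5 for miR-140-3p. Without the 2 libraries farthest from the median of miR-140-5p, r was 0.97 for miR-503-5p and 0.93 for miR-421-3p, and 0.43 for miR-17-5p, 0.75 for miR-7a-5p and 0.34 for miR-93-5p. The most alike, miR-503-5p, was itself a low-count miRNA with a mean CPM of 23.2 ± 0.436 in high glucose, 15.4 ± 9.70 for mannitol and 22.9 ± 5.50 for normal glucose (SD, n = 3 each).

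Other miRNAs linked to cartilage were mostly present at far lower levels. Of a list of 10, 8 were listed in at least 1 library and 7 were tested. At 0 in all libraries were miR-675-3p and miR-675-5p, which are cut from the long RNA H19 and respond to SOX9 in human chondrocytes, and miR-455-3p was listed in 1 library. miR-455-5p, from the collagen gene Col27a1, had a mean CPM of 108 ± 35.9 in high glucose, 117 ± 22.0 for mannitol and 146 ± 48.0 for normal glucose (SD, n = 3 each). miR-146a-5p, a brake on inflammatory signalling, averaged 190 ± 18.5, 180 ± 27.2 and 225 ± 109 CPM in the same order of groups. miR-199a-3p, a mesenchymal miRNA whose counts cannot be told from those of its copy miR-199b-3p, averaged 310 ± 90.3, 338 ± 69.3 and 301 ± 42.8 CPM. The exception in level was miR-27b-3p, given above.

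In the reported fit none of the 7 tested cartilage-linked miRNAs passed in any comparison, against the same background of 0% at an adjusted p under 0.05 by edgeR. At an unadjusted p under 0.05 edgeR had 0 of the 7 in each comparison, beside 10, 19 and 5 of all 361 miRNAs in high glucose against normal glucose, high glucose against mannitol and mannitol against normal glucose. In high glucose against normal glucose 4 had a positive and 3 a negative log2 fold change (median 0.17, against -0.04 for all tested miRNAs). The positive values were 2.38 for miR-9-5p (SE 1.73), 0.91 for miR-145a-5p (SE 1.45), 0.50 for miR-27b-3p (SE 0.29) and 0.17 for miR-199a-3p (SE 0.34). The negative values were -0.60 for miR-365-3p (SE 1.21), -0.32 for miR-455-5p (SE 0.33) and -0.13 for miR-146a-5p (SE 0.33). Without the expression filter edgeR's quasi-likelihood test called miR-9-5p in this comparison (2.37, adjusted p = 0.0101). The CPM of miR-9-5p in high glucose was 89.1 ± 143 (SD, n = 3). In high glucose against mannitol 6 were positive and 1 negative (median 0.21, against -0.04). In mannitol against normal glucose 4 were positive and 3 negative (median 0.14, against 0.01).

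**Figure D5:**
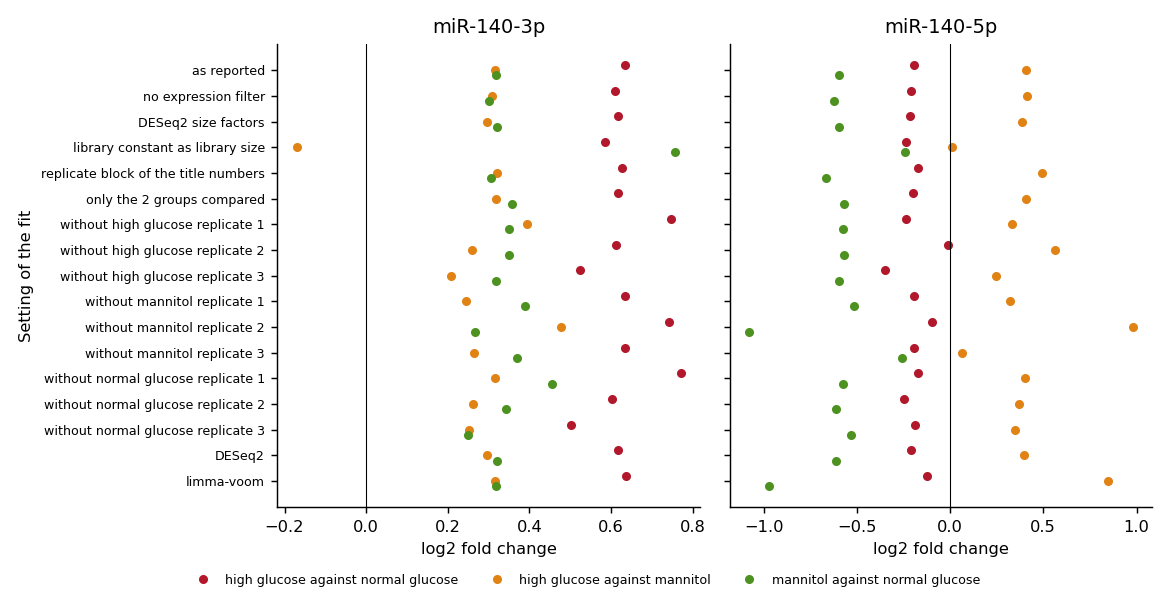
Log2 fold changes of miR-140-3p (left) and miR-140-5p (right) in the 3 comparisons, each row a setting of the fit, from the one reported to single libraries left out and other tools. For high glucose against normal glucose miR-140-3p lies between 0.50 and 0.77 in every setting shown, and for high glucose against mannitol it lies at -0.17 with the library constant and above 0 elsewhere.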

How the data were processed

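Small RNA libraries of vesicles from 3 groups of 3 samples were used. Per the file headers the authors deposited a total count and a normalized value per miRNA; the whole-number counts were used as deposited, and the deposited RPM values equal the count divided by 1 constant per library, the meaning of which no source used here gives. The tools bcl2fastq and BWA and the build mm10 are named per the submitters' processing notes, without versions or settings, and GENCODE and RefSeq annotation of the same build (GRCm38) was used for coordinates.

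The miRNAs, lists and naming rule were chosen with earlier results of these data known. Named were both arms, seed partners, neighbours in level and in arm ratio, the 5 most alike per arm, and the 4 most abundant cartilage-linked miRNAs. List members not listed in every library were named as well. miR-99b, miR-151, miR-351, miR-425, miR-872 and the most abundant members of the other lists were named after their values were seen. Whether replicates were separate cultures is not stated, so spreads and p-values may be technical. CPM is relative to all miRNA counts. Fits used edgeR 4.0.16 in R 4.3.3 (TMM, filtering by group, robust quasi-likelihood, all 9 libraries, Benjamini-Hochberg adjustment over 361 miRNAs, threshold 0.05), tested on simulated data. Alternatives used DESeq2 1.42.0, limma-voom (limma 3.58.1), no filter, other scalings, a replicate block, 2 groups only and single libraries left out. Deviations from group means of same-numbered libraries correlated at 0.296 to 0.322 in the 3 pairs of high with normal glucose (over 0.1 in every pair). They correlated at 0.043 to 0.682 for high glucose with mannitol and at 0.084 to 0.487 for mannitol with normal glucose. The reported fits used no pairing in any comparison, and the replicate block was fitted only as an alternative. Folding used ViennaRNA 2.7.2. Chi-square statistics between libraries of a group were 74.8 to 645 per degree of freedom, so no duplicate library was seen.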

Additional observations from a re-analysis of the deposited data

How the results depend on the processing

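In the 16 alternative fits of each comparison neither arm passed, and the sign of each arm was kept in 5 of 6 arm-by-comparison values. The exception was miR-140-3p in high glucose against mannitol, at -0.17 with the library constant as library size, where the median of all tested miRNAs was -0.59. With 1 library left out miR-140-3p ranged from 0.50 to 0.77 in high glucose against normal glucose, 0.21 to 0.48 in high glucose against mannitol and 0.25 to 0.46 in mannitol against normal glucose. miR-140-5p ranged from -0.35 to -0.01, 0.07 to 0.98 and -1.08 to -0.26 in the same order, with the ends of the second and the third range reached without mannitol replicates 2 and 3. Between arms, the ratio difference ranged from 0.61 to 1.05, -0.58 to 0.15 and 0.70 to 1.43; the reversal in high glucose against mannitol came without mannitol replicate 3. The correlation of the arms ranged from -0.25 to 0.12 with 1 library left out, turning positive without normal glucose replicate 3, and was 0.054 on TMM-scaled CPM, 0.35 on deposited values, 0.17 without the 10 most abundant miRNAs in the total and 0.40 after centring on group means. The cause of these turns was not tested.

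Counts of miRNAs past the threshold were 0 except without the expression filter (2 in high glucose against normal glucose, 3 in high glucose against mannitol, 1 in mannitol against normal glucose), and, in high glucose against mannitol, 1 with DESeq2 and 1 without mannitol replicate 2 (range 0 to 1 with a library left out). List members were among those called without the filter. They were miR-9-5p (2.37 in high glucose against normal glucose) and the muscle marker miR-1a-3p. The latter had -2.78 in high glucose against mannitol and 2.08 in mannitol against normal glucose. With the title numbers as a replicate block, miR-140-3p had 0.63, 0.32 and 0.31 and miR-140-5p -0.17, 0.50 and -0.67, with 0 called in each comparison, so it changed no call; the numbers at an unadjusted p under 0.05 were 19, 52 and 17, against 10, 19 and 5 without it. The deviations of same-numbered libraries correlated best with their own number in 14 of 18 cases, a hint from the data and not from the design. Each correlation entered from both of its libraries, and deviations within a group are tied by its mean, so the 18 cases are not independent. Counts of 16 to 57 reads limit every value of miR-140-5p.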
